A study of Mus musculus with 18 samples.

Results

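In the proximal epididymis of the mouse, 220 of 12367 genes had lower mean levels after removal of both testes, and higher mean levels where the duct had lost its luminal input, or the ligand NELL2 in it, while a testis remained in the body. A gene was taken into the set when the ratio of group means was under 0.67 for bilaterally orchidectomized (BOD) over sham-operated tissue, more than 25% above 1 for the ipsilateral side of unilaterally orchidectomized males (UOD) over their contralateral side (contra), and again more than 25% above 1 for *Nell2*-/- over wild-type (WT) tissue, with a sham mean of at least 1 FPKM. FPKM counts fragments relative to the length of a transcript and to the reads of the library, so levels of different genes can be set beside each other per length. Symbols beginning with Defb, Lcn, Gpx, Spink, Wfdc, Serpin, Rpl or Rps were left out. The set was 1.78% of the 12367 genes with that sham level outside the 8 symbol families, in a table of 24346 genes. The 3 ratios chose the genes, so for the members they are given below as description, without a test.

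RNA was sequenced from the initial segment of the epididymis dissected together with the caput ("IS-caput"), with 3 libraries in each of 6 groups. BOD and sham tissue came from wild-type B6D1F1 males operated at 8 weeks of age and sampled 4 weeks later, at 12 weeks. UOD and contra tissue came from wild-type B6D1F1 males of the same ages that had lost 1 testis, UOD from the operated side and contra from the side with its testis, so that by the methods both stem from the same 3 mice. *Nell2*-/- and WT tissue came from 14-week-old males without treatment. The tissue was bulk and held every cell type of the dissected piece, in which fewer cells of a type and less RNA per cell cannot be told apart.

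The testis acts on the epididymis by more than 1 route. Androgens made by Leydig cells arrive through the blood and also through the efferent ducts, while germ cells and Sertoli cells release proteins into the luminal fluid that act on the epithelium downstream, the lumicrine route. NELL2 is such a germ-cell protein: it reaches the initial segment with the fluid and acts there through the receptor tyrosine kinase ROS1, which drives differentiation of the initial segment. Bilateral orchidectomy removes both routes. Unilateral orchidectomy removes the lumicrine route on the operated side, while the remaining testis still supplies androgen through the blood, and in *Nell2*-/- males the testes remain but the ligand is missing. The principal cells of the caput, downstream of the initial segment, are known for the secretion of lipocalins, beta-defensins, ribonuclease-like proteins and other products that coat the sperm.

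The tissue carried the epithelial markers *Epcam* and *Pax8* in every library. *Fkbp5*, an androgen-induced co-chaperone chosen for this purpose after its values were seen, stood at 29.8, 27.8 and 27.7 FPKM in BOD against 182, 181 and 191 in sham tissue, at 171, 183 and 171 in UOD against 181, 202 and 183 in contra tissue, and at 185, 183 and 197 in *Nell2*-/- against 182, 185 and 188 in WT tissue. Its log2 difference from limma was -2.70 ± 0.05 (adjusted p = 2.7e-17) for BOD minus sham, -0.11 ± 0.05 (adjusted p = 0.125) for UOD minus contra and 0.03 ± 0.05 (adjusted p = 0.756) for *Nell2*-/- minus WT. *Nell2* itself was at 0, 0.0274 and 0 FPKM in *Nell2*-/- and 0.130, 0.0302 and 0.0610 FPKM in WT tissue, a level so low in the epididymis that it hardly checks the genotype labels. *Rnase10*, a product of the initial segment, was at 0.425, 0.655 and 0.789 FPKM in BOD, 4641, 4717 and 3990.5 in sham, 3.49, 4.04 and 2.28 in UOD, 3204, 3204 and 3362 in contra, 1.32, 0.988 and 1.43 in *Nell2*-/- and 3757, 3852 and 3717 in WT tissue. Every BOD, UOD and *Nell2*-/- library was thus under 5 FPKM, while no control library was under 3204 FPKM. FPKM values carry no depth, but the step that 1 read makes in low genes put every library within 0.6002 to 1.01 times the value of 1 read in sham replicate 1.

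Sham replicate 3 stood apart from the other sham libraries on the members. It was the highest sham library for 169 of the 220 members (76.8%), against 33.2% of the 12367 genes. The median ratio of sham replicate 3 to the mean of the other 2 sham libraries was 1.22 over the members, 1.53 over 16 genes of a distal caput marker list that are no members, 0.874 over the 25 genes of the initial segment list and 0.998 over the 12367 genes. It was over 1.5 times the other 2 in 55 members (25%), against 2.01% of the 12367 genes, and over 2 times in 18. Among members with reads in all sham libraries, the ratio was highest for the ribonuclease-like gene *Rnase9* (5.33 times), the mucin *Muc5b* (4.62 times), *Gm6792* (4.21 times) and the neurotensin receptor *Ntsr2* (3.76 times). Without sham replicate 3, 195 members still had a BOD/sham ratio under 0.67 and 219 had a ratio below 1, and the median ratio over the members was 0.423 in place of 0.391. A choice of genes made without that library gave 197 genes, 188 of them members. Without sham replicate 3 the GABA receptor subunit *Gabrb1* had a BOD/sham ratio of 0.862, and *Gabra4* 0.715. Members described below whose ratio also passed 0.67 include *C1qtnf5* (0.781), *Fut1* (0.778), *Gamt* (0.769), *Prex1* (0.738), *Il6ra* (0.719) and *Kcna1* (0.718). They also include *Spag11a* (0.712), *Phgdh* (0.701), *Agpat3* (0.699), *Tcf7* (0.697), *Car12* (0.689) and *Mthfd2* (0.675).  WT replicate 2 deviated the other way, with a median ratio to the other 2 WT libraries of 0.930 over the members and 0.812 over the distal caput genes.

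**Figure D1:**
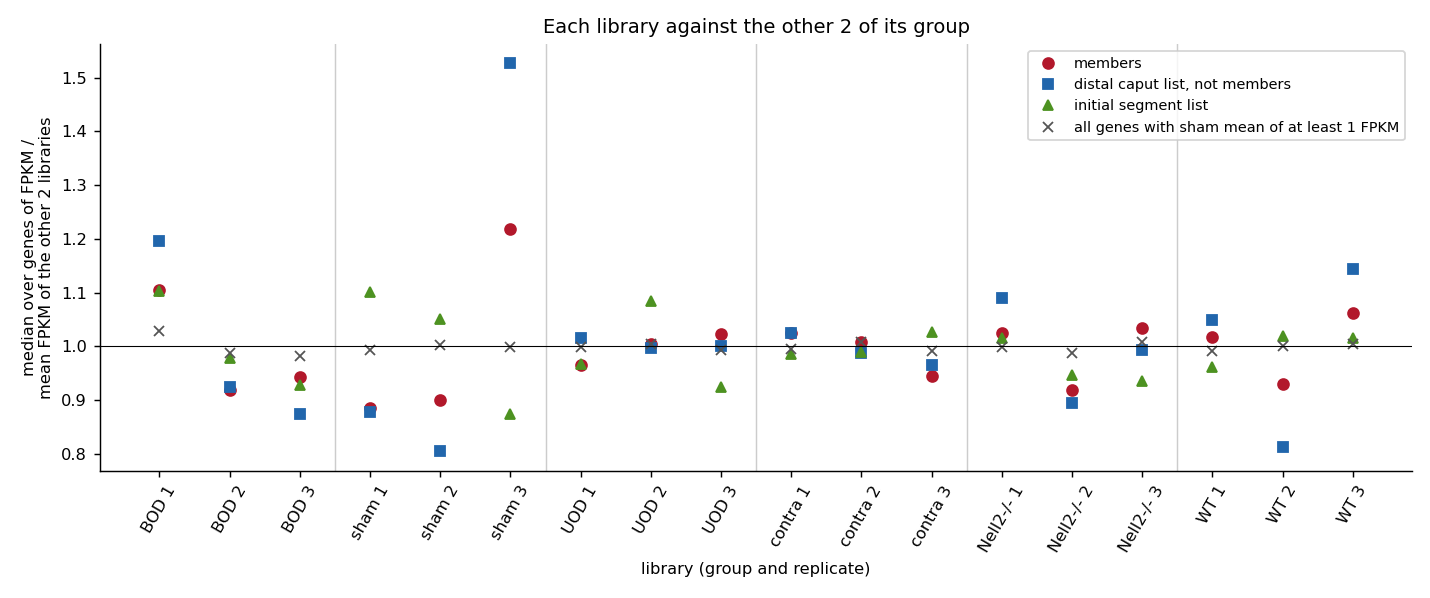
For each of the 18 libraries (horizontal axis), the median over genes of its FPKM divided by the mean FPKM of the other 2 libraries of its group (vertical axis), for the 220 members, 16 distal caput genes that are no members, the 25 genes of the initial segment list and the 12367 genes the set was taken from. Sham replicate 3 stands at 1.22 for the members and 1.53 for the distal caput genes, while the 12367 genes lie near 1 in every library.

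Over the 220 genes the median ratio was 0.391 for BOD over sham (quartiles 0.193 and 0.550), 1.57 for UOD over contra (1.41 and 1.88) and 1.88 for *Nell2*-/- over WT (1.53 and 2.39). The depletion in BOD tissue ranged widely: 35 members had a BOD/sham ratio under 0.1, 55 lay between 0.1 and 0.33, 59 between 0.33 and 0.5, and 71 between 0.5 and 0.67. UOD over contra exceeded 2 in 47 members, *Nell2*-/- over WT exceeded 2 in 95, and both did in 34. The *Nell2*-/- over WT ratio was above the UOD over contra ratio in 156 members. The UOD mean was above the sham mean in 213 members and the *Nell2*-/- mean in 204. Both counts compare tissue of different males, and the *Nell2*-/- males were older than the sham males and had no operation. The rule favours genes with high UOD and *Nell2*-/- means, and the share over all genes was not taken, so both counts are description. Of the 12367 genes, 2724 had a BOD/sham ratio under 0.67, and 8.08% of those were members. UOD over contra and *Nell2*-/- over WT were both more than 25% above 1 in 1458 genes, of which 15.1% were members. The shares to set beside these are 1458 of 12367 genes for the 8.08% and 2724 of 12367 for the 15.1%. Both percentages of members lay below those shares, so the falls and the rises met less often than the shares alone would give.

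**Figure D2:**
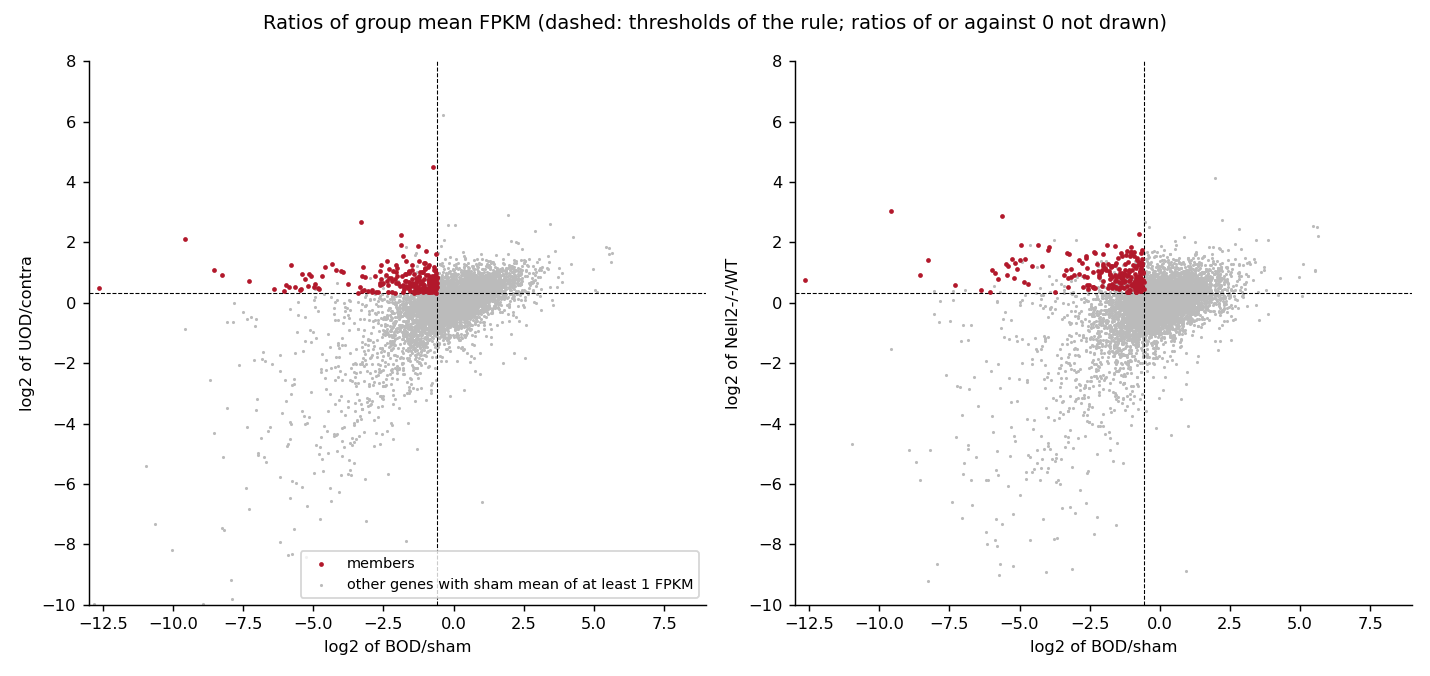
Log2 ratios of group mean FPKM, BOD over sham on the horizontal axis against UOD over contra (left) and *Nell2*-/- over WT (right), with the 220 members in colour over the other genes and the thresholds of the rule as dashed lines. The members lie in the upper left corner in both plots, the corner the rule defines, with median ratios of 0.391, 1.57 and 1.88, and a tail that runs to BOD/sham ratios far below 0.1.

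The libraries of a pair of groups mostly did not overlap. Every BOD library lay below every sham library in 207 members (31.9% of the 17302 genes tested did the same). Every UOD library lay above every contra library in 202 members (22.9% of all genes tested), and every *Nell2*-/- library above every WT library in 207 (24.8%). All of these held together in 189 members (2.89%), and none held in 4. With limma on log2(FPKM + 0.1), 210 members passed an adjusted p of 0.05 as lower in BOD (31.4% of all genes tested), 173 as higher in UOD (16%) and 196 as higher in *Nell2*-/- (17.8%), and 164 passed in all 3 (2.2%). These counts describe genes that the same ratios had picked. All 220 members passed the filter on low values, 0.1 FPKM in at least 3 libraries.

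The control groups stood close to each other in the median over the members, but not in every member. The median contra/sham ratio was 1.07, or 1.13 without sham replicate 3, and 152 members had sham, contra and WT means within 1.5-fold of one another. In 28 members these means spanned more than 2-fold. A contra mean over 1.5 times the sham mean was seen in 29 members and one under 0.67 times in 12. For these counts the share over all genes was not taken. By limma, 8 members were lower in contra than in sham tissue (5.99% of all genes tested) and 33 higher (6.65%). Sham and contra are both used by the rule, on opposite sides, so these values too are description.

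The rule was also applied with 1 replicate of every group set aside, and the genes it then chose were read in those libraries. When replicate 1 of each group was set aside, 260 genes met the rule on the others, and in the libraries set aside 226 of them (86.9%) were lower in BOD than sham, higher in UOD than contra and higher in *Nell2*-/- than WT, against 12.6% of all genes with the required sham mean in the choosing libraries. With replicate 2 set aside it was 205 of 224 (91.5%, against 12.3%), and with replicate 3 set aside 168 of 187 (89.8%, against 13.1%). The full thresholds were met in the libraries set aside by 48.8%, 70.5% and 71.1%, against 1.48%, 1.88% and 2.16% of all genes. The thresholds themselves had been proposed with all libraries known, so these shares are description and no independent check of the set.

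FPKM are relative to the total of a library, and the most abundant initial segment genes took very different parts of that total between groups. The summed FPKM of the initial segment list was 4493 to 5209 in BOD against 82474 to 98931 in sham tissue, 8843 to 11361 in UOD against 63839.8 to 65007 in contra tissue, and 3655 to 4166 in *Nell2*-/- against 70451 to 73578 in WT tissue. With the 50 most abundant genes set aside and the rest scaled to equal totals, 163 genes met the rule, all of them members. That scaling put the median log2 ratio of the 12367 genes at 0.16 for BOD over sham, against -0.05 as deposited, and left the other 2 medians at -0.03 and -0.05.

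The most abundant member was *Lypd8*, which encodes a small membrane-anchored protein of the Ly6 family known in mouse colon for binding flagellated bacteria. *Lypd8* (chr11:58379032-58390541) was at 12.3, 13.04 and 11.7 FPKM in BOD against 4746, 4381 and 4816 in sham tissue, 8167, 8467 and 6787 in UOD against 3494, 3787 and 3749 in contra tissue, and 6347, 7740.1 and 8136 in *Nell2*-/- against 3875, 4113 and 3850.0 in WT tissue. No library overlapped its counterpart group, BOD retained 0.00266 of the sham mean, and *Lypd8* was 2.12 times as high in UOD as in contra tissue. *Slc38a5* (chrX:8271381-8280179) encodes a sodium-coupled carrier of glutamine, asparagine, histidine and serine. It was at 45.3, 40.3 and 38.2 FPKM in BOD against 2456, 2409.6 and 2966 in sham tissue, 4038, 4305 and 3731 in UOD against 2689, 2725 and 2586 in contra tissue, and 5429.9, 5078 and 5424 in *Nell2*-/- against 2573, 2374 and 2562 in WT tissue. BOD retained 0.0158 of the sham mean of this carrier, and the *Nell2*-/- mean was 2.12 times the WT mean. *Glul* (chr1:153899929-153909723) encodes glutamine synthetase. It was at 834, 735 and 752 FPKM in BOD against 1493, 1566 and 1901 in sham tissue, 3906, 3843 and 3487 in UOD against 1917, 1895 and 1757 in contra tissue, and 3364, 3277 and 3364 in *Nell2*-/- against 1639, 1566 and 1688 in WT tissue. Its BOD mean was 0.468 of the sham mean, while UOD and *Nell2*-/- tissue stood at 2.02 and 2.05 times their controls, again with no overlap.

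Next by sham mean came *Cuzd1*, which encodes a secreted protein with CUB and zona pellucida-like domains. It was at 344, 324 and 310.2 FPKM in BOD against 1557, 1516 and 1774 in sham tissue, 2811, 2834 and 2478 in UOD against 1505, 1550.0 and 1539 in contra tissue, and 1785, 1828 and 1909.7 in *Nell2*-/- against 1323, 1289 and 1314 in WT tissue. *D730048I06Rik* was at 305, 283 and 293 FPKM in BOD against 1453, 1372 and 1728 in sham tissue, 4329, 4055 and 2939 in UOD against 1361, 1430.3 and 1531 in contra tissue, and 3006, 3046 and 2964 in *Nell2*-/- against 1491, 1400.2 and 1575 in WT tissue. *Ptgds* encodes lipocalin-type prostaglandin D synthase, a known product of the epididymis. It was at 151, 117 and 127 FPKM in BOD against 1041, 958 and 1289 in sham tissue, 1079.7, 1340.3 and 1590.3 in UOD against 1032, 1016 and 997 in contra tissue, and 2049, 1702 and 2446 in *Nell2*-/- against 1175, 953 and 1167 in WT tissue. For *Ptgds* the UOD libraries spread widely and the lowest of them was only just above the highest contra library. *Ap1s2* encodes a subunit of the clathrin adaptor of the trans-Golgi network. It was at 215, 181 and 178 FPKM in BOD against 1043, 1093 and 1138 in sham tissue, 1703, 1754 and 1513 in UOD against 1034, 1061 and 1075 in contra tissue, and 1745, 1687 and 1728 in *Nell2*-/- against 1128, 1171 and 1169 in WT tissue. Of the 10 most abundant members by sham mean the others were the G protein subunit *Gng5*, the lysosomal membrane protein *Lamp1* and the glutathione transferase *Gstm7*. In all, 41 members had a sham mean of at least 100 FPKM, 78 lay from 10 to 100 and the others from 1 to 10, with a median of 12.6 FPKM against 10.8 over the 12367 genes.

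**Figure D3:**
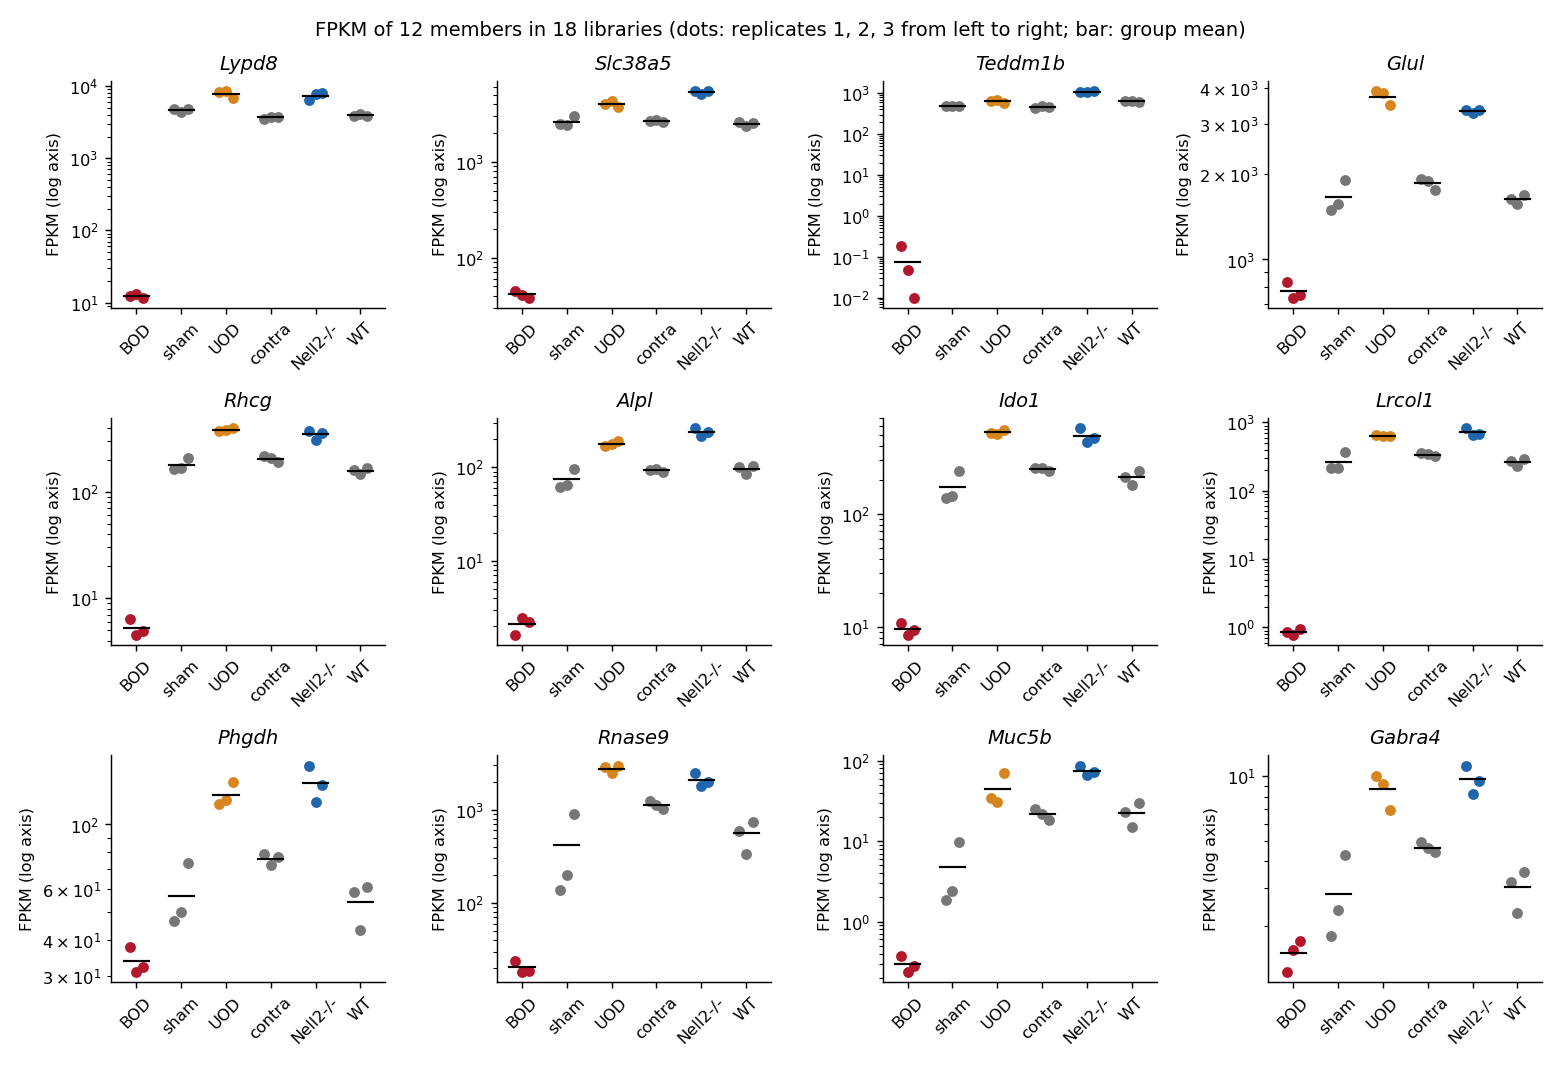
FPKM (log axis) of 12 members in the 18 libraries, one panel a gene, with the 3 libraries of a group as dots from replicate 1 at the left and the group mean as a bar (*Teddm1b* in BOD replicate 3, listed at 0, is drawn at 0.01). The lower BOD than sham mean and the higher UOD than contra and *Nell2*-/- than WT means are seen in each panel, as the rule requires, and sham replicate 3 lies above the other sham libraries for genes such as *Rnase9* (902 against 139 and 199 FPKM).

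Start regions of 5 members are shown as examples of regions that hold searched motifs, and were chosen after the members' values were seen. For a member with more than 1 start region, the first that held the motif is shown. The region shown for *Ggt1* lies inside its gene model (chr10:75561076-75586193), at a start downstream of the first base of the model. RefSeq start regions of 300 bases, 250 before to 50 after the start, were found for 169 of the 220 members, as 230 regions on GRCm38.p6. The letters AGAACA on either strand, the 6-base part of an androgen response element, were found in 37 of these (16.1%), against 12.5% of the regions of other genes with a sham mean of at least 1 FPKM and 19% of all 32851 regions. The E-box CACGTG was in 10.4% of the members' regions, against 9.95% of the other expressed genes and 7.15% of all. The GC box GGGCGG was in 48.3%, against 62.6% of the other expressed genes and 35.7% of all, and the ETS letters AGGAAG, a motif family of initial segment transcription factors, in 34.3%, against 33% and 35.4%. The cyclic AMP element TGACGTCA was in 1 region, at a start inside *Ggt1* (0.435%, against 2.98% and 1.79%). The median observed over expected CpG was 0.487 in the members' regions, 0.750 in those of other expressed genes and 0.384 in all, and 39.6% of the members' regions were over 0.6, against 68.6% and 35.8%. A match is a run of letters, not a bound site. The regions follow 5′ to 3′ on the gene's strand, with only the letters named beside each in capitals (TGTTCT is AGAACA on the other strand). Matches to the other motifs, such as GGGCGG in the regions of *Rhcg*, *Slc38a5* and *Ggt1* and AGGAAG in those of *Lypd8* and *Rhcg*, stay in lower case.
*Lypd8* (chr11:58378782-58379081, plus strand, AGAACA at -218 and -161): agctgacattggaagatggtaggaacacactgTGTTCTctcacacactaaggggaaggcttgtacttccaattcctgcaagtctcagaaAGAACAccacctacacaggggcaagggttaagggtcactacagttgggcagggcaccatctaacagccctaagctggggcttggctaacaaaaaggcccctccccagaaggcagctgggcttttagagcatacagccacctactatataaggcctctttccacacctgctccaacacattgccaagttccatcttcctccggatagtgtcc
*Rhcg* (chr7:79617608-79617907, minus strand, AGAACA at -193): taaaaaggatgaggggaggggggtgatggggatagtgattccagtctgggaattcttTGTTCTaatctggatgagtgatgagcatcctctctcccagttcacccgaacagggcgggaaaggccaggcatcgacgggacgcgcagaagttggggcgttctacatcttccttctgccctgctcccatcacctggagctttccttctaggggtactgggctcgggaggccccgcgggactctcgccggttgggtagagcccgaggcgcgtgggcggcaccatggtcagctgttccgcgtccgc
*Rnase9* (chr14:51041818-51042117, minus strand, AGAACA at +24): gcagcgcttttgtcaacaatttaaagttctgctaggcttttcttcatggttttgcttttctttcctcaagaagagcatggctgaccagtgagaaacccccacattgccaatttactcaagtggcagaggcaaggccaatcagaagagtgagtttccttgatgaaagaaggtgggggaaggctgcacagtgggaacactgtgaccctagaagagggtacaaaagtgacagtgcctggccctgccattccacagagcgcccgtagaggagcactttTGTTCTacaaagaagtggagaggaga
*Slc38a5* (chrX:8271131-8271430, plus strand, CACGTG at -30): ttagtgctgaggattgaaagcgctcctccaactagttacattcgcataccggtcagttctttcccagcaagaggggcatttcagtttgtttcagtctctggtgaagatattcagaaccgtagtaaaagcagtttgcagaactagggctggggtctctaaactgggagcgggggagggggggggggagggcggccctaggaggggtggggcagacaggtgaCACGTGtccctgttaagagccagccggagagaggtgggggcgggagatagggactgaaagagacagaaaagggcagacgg
*Ggt1* (chr10:75571310-75571609, plus strand, TGACGTCA at -59): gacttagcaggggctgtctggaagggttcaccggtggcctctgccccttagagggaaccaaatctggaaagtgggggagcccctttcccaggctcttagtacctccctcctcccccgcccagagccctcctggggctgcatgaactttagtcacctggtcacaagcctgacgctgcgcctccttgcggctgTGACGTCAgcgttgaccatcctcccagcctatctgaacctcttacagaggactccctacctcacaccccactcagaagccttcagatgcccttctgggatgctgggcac

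Members were grouped by known role after their values had been seen, which left 97 of them in none of 15 groups. The secretory and sperm-coating products, with 15 members, had the highest median *Nell2*-/- over WT ratio of the 15 groups (2.68), with a median UOD/contra ratio of 2.05 and a median BOD/sham ratio of 0.101. Among the metabolic groups the median BOD/sham ratio ranged widely, from 0.0550 for tryptophan and aromatic amino acid breakdown over 0.223 for steroid and drug metabolism and 0.371 for lipid metabolism to 0.546 for glutamine, glutamate and serine metabolism. It was 0.429 for ER, Golgi and lysosome and 0.586 for the apical membrane and cytoskeleton.

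**Figure D4:**
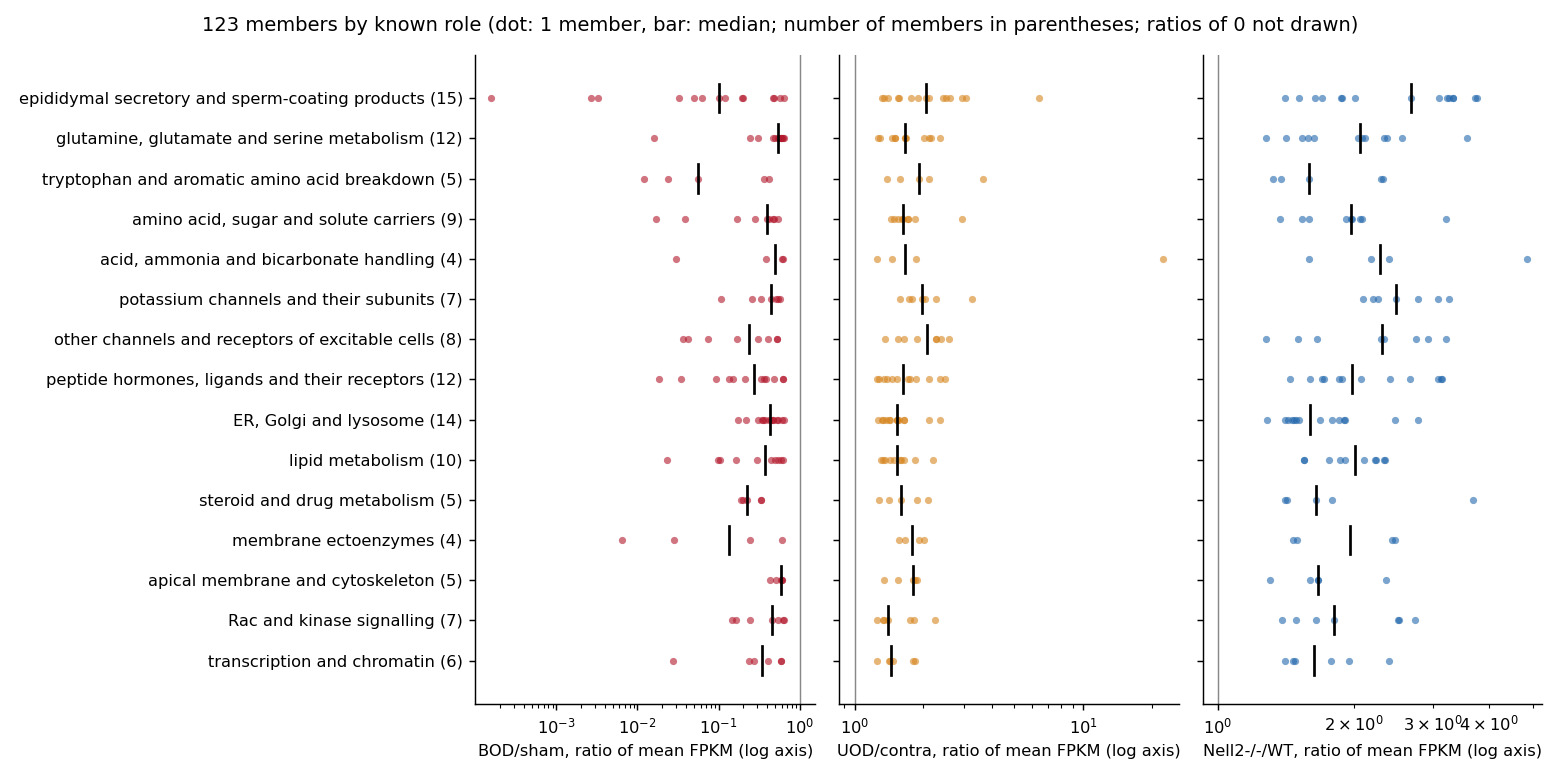
The members placed in a role group (vertical axis, number of members in parentheses), with the ratio of mean FPKM on a log axis for BOD over sham, UOD over contra and *Nell2*-/- over WT, each dot 1 member and each bar the median. The secretory products lie far below 1 for BOD over sham (median 0.101) and above it for the others (2.05 and 2.68), while the serine and glutamine group sits nearer to 1 for BOD over sham (0.546).

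Among the secretory products, *Teddm1b* had the lowest BOD/sham ratio of those above 0 in BOD tissue. *Teddm1b* (chr1:153874345-153876871) encodes one of a small family of epididymal membrane proteins. It was at 0.181, 0.0465 and 0 FPKM in BOD against 482, 483 and 488 in sham tissue, 649, 695 and 581 in UOD against 443, 485 and 452 in contra tissue, and 1099, 1049 and 1112 in *Nell2*-/- against 656, 641 and 620.2 in WT tissue. Its BOD libraries were within 0.2 FPKM of 0, and the UOD/contra and *Nell2*-/- over WT ratios (1.40 and 1.70) were without overlap. *Lrcol1* encodes a colipase-like protein. It was at 0.870, 0.783 and 0.943 FPKM in BOD against 217, 217 and 364 in sham tissue, 651, 639.7 and 626 in UOD against 354, 339.7 and 322 in contra tissue, and 816, 654 and 685 in *Nell2*-/- against 277, 233 and 294 in WT tissue. *Rnase9* encodes a ribonuclease-like protein of the epididymis without the catalytic residues. It was at 24.1, 18.3 and 18.8 FPKM in BOD against 139, 199 and 902 in sham tissue, 2849, 2448 and 2969.5 in UOD against 1252, 1114 and 1007 in contra tissue, and 2455, 1783 and 1988 in *Nell2*-/- against 593, 337 and 742 in WT tissue. *Rnase13* belongs to the same family. It was at 11.04, 4.33 and 4.42 FPKM in BOD against 95.2, 128 and 392 in sham tissue, 622, 606 and 608 in UOD against 427, 412 and 349 in contra tissue, and 1369, 1008 and 1146 in *Nell2*-/- against 339.6, 211 and 385 in WT tissue. For *Rnase9* and *Rnase13* the BOD libraries lay below every other library, and sham replicate 3 was several times the other sham libraries, and the BOD/sham ratio was 0.0493 for *Rnase9* and 0.0322 for *Rnase13*, or 0.120 and 0.0592 without that library. *Spag11a* encodes a defensin-like sperm-binding peptide. It was at 203, 117 and 128 FPKM in BOD against 204, 215 and 281 in sham tissue, 1164, 1028 and 1683 in UOD against 507, 411 and 343 in contra tissue, and 779, 808 and 860.4 in *Nell2*-/- against 239, 223 and 274 in WT tissue. BOD replicate 1 was only just below the lowest sham library, and *Spag11a* had a BOD/sham ratio of 0.640 but UOD/contra and *Nell2*-/- over WT ratios of 3.07 and 3.33, all 3 without overlap.

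The same group held genes of low level and of single strong libraries. *Ly6f*, of the Ly6 family, had a UOD/contra ratio of 6.44, the second highest among members with a contra mean of at least 1 FPKM, at 29.7, 29.8 and 18.3 FPKM in UOD against 3.57, 4.36 and 4.15 in contra tissue. It was at 0.415, 0.480 and 0.578 FPKM in BOD against 5.87, 3.43 and 5.34 in sham tissue. *Pate4*, of the prostate and testis expressed family, was listed at 0 in all 3 BOD libraries against 1.77, 1.16 and 2.02 FPKM in sham tissue, and stood at 6.47, 9.30 and 8.73 FPKM in *Nell2*-/- against 2.64, 2.86 and 2.001 in WT tissue. The gel-forming mucin *Muc5b* was at 86.8, 65.9 and 73.3 FPKM in *Nell2*-/- against 23.3, 14.9 and 29.6 in WT tissue and at 0.370, 0.238 and 0.278 in BOD against 1.85, 2.43 and 9.89 in sham tissue, with most of the sham mean from replicate 3. *Npc2*, the cholesterol-binding protein secreted by the epididymis, had ratios of 0.471, 1.35 and 1.64 for BOD over sham, UOD over contra and *Nell2*-/- over WT. *Glrp1* and *Ovgp1* were near 1 to 2 FPKM in sham tissue, and *Glrp1* overlapped between BOD and sham tissue and *Ovgp1* between UOD and contra tissue. *Glrp1* was at 0.917, 0.646 and 0.741 FPKM in BOD against 0.615, 1.86 and 2.28 in sham tissue.

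The wider list of distal caput markers carried the same direction in many genes and not in all. The list had 25 genes, of which 24 were tested and 6 were members. Of the 18 tested genes that are no members, 12 were lower and 3 higher in BOD than in sham tissue (all genes tested, 31.4% and 30.4%), 9 were higher and 3 lower in UOD than in contra tissue (16% and 18.6%), and 11 were higher and 2 lower in *Nell2*-/- than in WT tissue (17.8% and 18.6%). The median log2 differences of these 18 genes were -2.33, 0.57 and 1.17, against 0.02 for all genes tested in each comparison. *Lcn5*, *Defb15*, *Defb21*, *Defb37* and *Spink11*, counted among the 18, met the 3 ratios themselves and were left out by their symbol, as were 14 further genes of the left-out families outside the list. Of the other 13, *Wfdc8* passed the test in all 3 directions, with log2 differences of -0.38 ± 0.13 (adjusted p = 0.0160) for BOD minus sham and 1.06 ± 0.13 (adjusted p = 5.9e-06) for UOD minus contra, and with means of 239.6 FPKM in *Nell2*-/- and 112 FPKM in WT tissue. *Lcn5*, the epididymal retinoic acid-binding lipocalin, averaged 116 ± 26.3 FPKM in BOD and 2942 ± 2396 in sham tissue, 13871 ± 1380.2 in UOD and 6064 ± 567 in contra tissue, and 15572 ± 2967 in *Nell2*-/- and 4211 ± 1317 in WT tissue (SD, 3 libraries each), with a sham SD almost as large as the mean.

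Other genes of the list followed other patterns. *Adam7*, a sperm membrane protein supplied by the epididymis, fell to 20.7 FPKM in BOD, against 4845 in sham tissue, with a log2 difference of -7.86 ± 0.05 (adjusted p = 5.1e-24), and was also lower in UOD than contra tissue, with -0.63 ± 0.05 (adjusted p = 2.4e-08), and in *Nell2*-/- than WT tissue, with -0.63 ± 0.05 (adjusted p = 2.0e-08). *Gpx5*, the epididymal glutathione peroxidase, had log2 differences of -5.69 ± 0.09 (adjusted p = 2.8e-18), -0.24 ± 0.09 (adjusted p = 0.0527) and 0.26 ± 0.09 (adjusted p = 0.0363) for BOD minus sham, UOD minus contra and *Nell2*-/- minus WT. *Clu*, clusterin, was higher in all 3, with 1.58 ± 0.17 (adjusted p = 6.3e-07), 1.14 ± 0.17 (adjusted p = 6.7e-05) and 1.51 ± 0.17 (adjusted p = 2.7e-06) in the same order. The summed FPKM of the whole list ran from 31789.7 to 40784 in BOD against 82102 to 97098 in sham tissue, from 98926 to 108095 in UOD against 80888 to 82581 in contra tissue, and from 112815 to 122160.0 in *Nell2*-/- against 76558 to 85414 in WT tissue. These sums moved in the same direction as the members in each comparison. They hold the 6 members of the list and *Lcn5*, *Defb15*, *Defb21*, *Defb37* and *Spink11*, so that direction was partly fixed by the rule. Sums without these genes were not taken, and the part of the sums in the members' ratios was not tested.

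**Figure D5:**
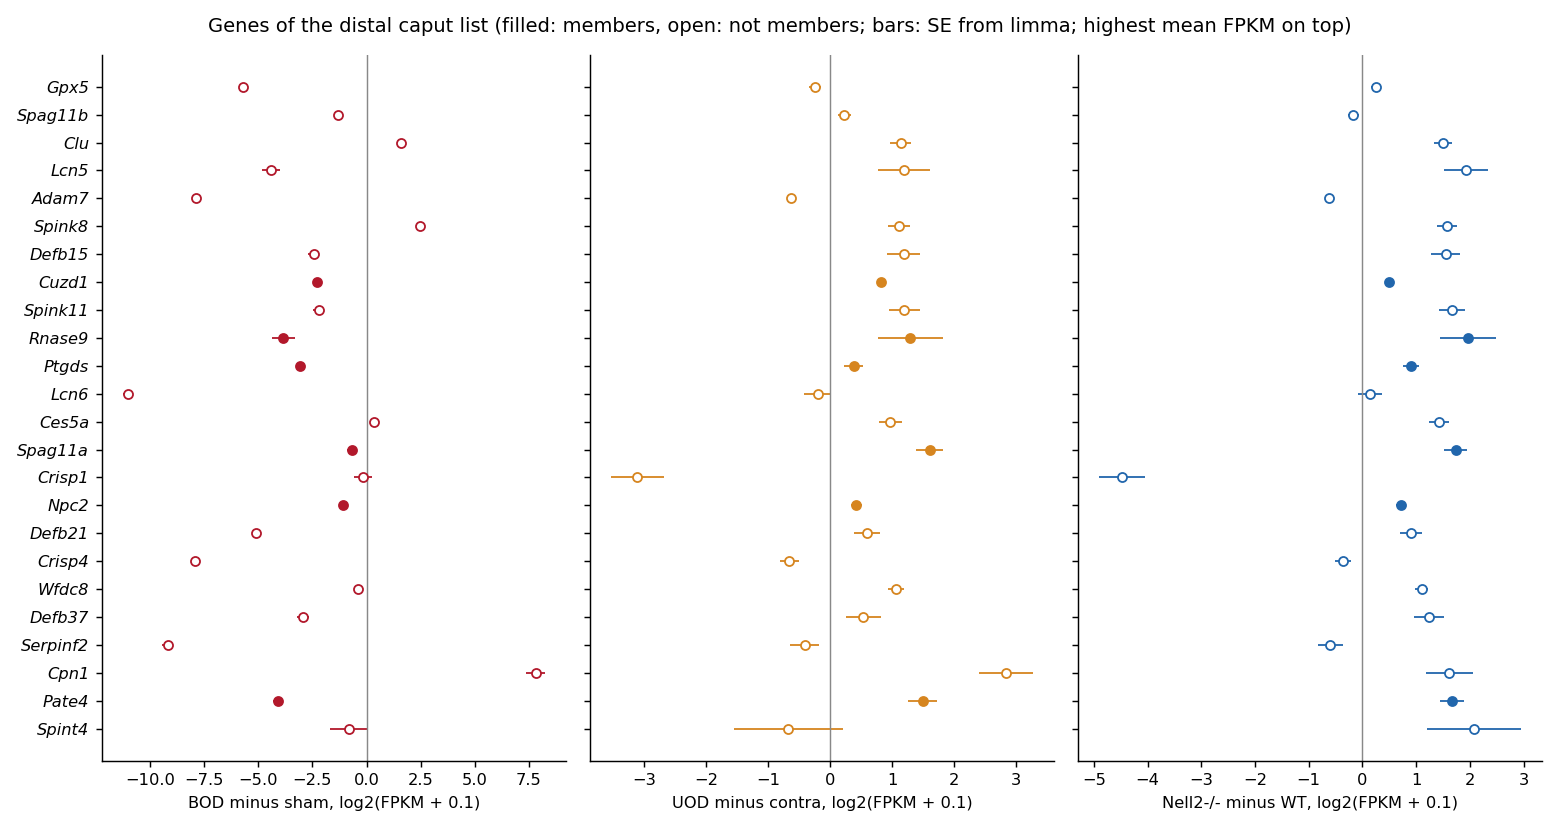
Log2 differences with their SE from limma for the genes of the distal caput list, in BOD minus sham, UOD minus contra and *Nell2*-/- minus WT, members as filled and other genes as open points. Most genes lie left of 0 for BOD minus sham and right of 0 for the others, while *Adam7* is left of 0 in all 3 (-7.86, -0.63 and -0.63) and *Clu* right of 0 in all 3 (1.58, 1.14 and 1.51).

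Markers of other cells moved as well. Of 13 clear and narrow cell markers, among them the transcription factor *Foxi1* and subunits of the vacuolar proton pump, 10 were higher and 1 lower in BOD, 9 higher and 2 lower in UOD, and 8 higher and 2 lower in *Nell2*-/- tissue. Their summed FPKM was 977 to 1109.6 in BOD against 283 to 288 in sham tissue, 420.1 to 521 in UOD against 274 to 288 in contra tissue, and 408 to 425 in *Nell2*-/- against 276 to 277 in WT tissue. In BOD these markers moved against the members, in the other comparisons with them, and their part in the members' values was not tested. Of 13 markers of ciliated efferent duct cells 12 were higher in BOD and 4 in UOD tissue. Of 9 adipocyte and 11 T and NK cell markers 7 each were higher in BOD tissue. Of 16 late germ cell markers, 12 were lower in BOD and 11 lower in UOD tissue. Their summed FPKM was 17.3 to 19.02 in BOD against 96.6 to 119 in sham tissue. It was 17.4 to 24.2 in UOD against 85.5 to 115 in contra tissue. In *Nell2*-/- tissue none of these germ cell markers was lower and 1 was higher. Their sum there was 279 to 316 FPKM, against 195 to 295 in WT tissue.

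The handling of glutamine, glutamate and serine was represented by 12 members. *Glul* and *Slc38a5*, described above, were the most abundant of these, and glutamine synthetase makes the glutamine that the carrier moves. *Got2* encodes the mitochondrial aspartate aminotransferase. It was at 115, 95.9 and 96.5 FPKM in BOD against 305, 309.5 and 378 in sham tissue, 499, 521 and 565 in UOD against 376, 361 and 346 in contra tissue, and 568, 473 and 533 in *Nell2*-/- against 344, 324 and 355 in WT tissue. *Phgdh* commits glycolytic carbon to serine. It was at 37.8, 30.9 and 32.2 FPKM in BOD against 46.3, 49.8 and 73.4 in sham tissue, 118, 122 and 140.0 in UOD against 78.9, 72.1 and 76.9 in contra tissue, and 159.8, 119.9 and 137 in *Nell2*-/- against 58.6, 43.2 and 60.6 in WT tissue. Mitochondrial *Mthfd2* oxidizes the folate-bound carbon unit. It was at 36.9, 23.3 and 25.5 FPKM in BOD against 41.6, 43.1 and 54.4 in sham tissue, 110.1, 112 and 98.7 in UOD against 48.6, 52.4 and 50.5 in contra tissue, and 105, 109 and 115 in *Nell2*-/- against 50.2, 49.97 and 57.2 in WT tissue. For all 3 the groups did not overlap, and *Phgdh* in sham replicate 3 (73.4 FPKM) reached the level of contra tissue. Without that library the BOD/sham ratio was 0.701 for *Phgdh* and 0.675 for *Mthfd2*, outside the rule, and 0.334 for *Got2*. *Shmt2*, the mitochondrial serine hydroxymethyltransferase, and *Amt*, of the glycine cleavage system, had BOD/sham ratios of 0.602 and 0.551 and UOD/contra ratios of 1.497 and 1.30. *Gamt* completes creatine synthesis. It was at 124, 86.7 and 87.8 FPKM in BOD against 131, 128 and 204 in sham tissue, 299, 303 and 321 in UOD against 195, 173 and 181 in contra tissue, and 388, 303 and 354 in *Nell2*-/- against 154, 131 and 157 in WT tissue, and BOD replicate 1 came close to the lowest sham library.

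The group also held enzymes that cleave glutathione. *Ggt1* encodes the gamma-glutamyl transferase of the apical membrane and stood on the list of initial segment markers. It was at 18.6, 14.3 and 13.6 FPKM in BOD against 54.6, 54.9 and 81.7 in sham tissue, 183, 194 and 208 in UOD against 86.5, 81.4 and 79.4 in contra tissue, and 207, 183 and 181 in *Nell2*-/- against 84.0, 76.2 and 83.8 in WT tissue. Of the other 24 tested genes of the initial segment list, 19 were lower and 2 higher in UOD and 20 lower and 2 higher in *Nell2*-/- tissue, with median log2 differences of -4.76 and -6.33. *Chac1*, which cleaves glutathione inside the cell, was at 9.13, 7.08 and 5.30 FPKM in *Nell2*-/- against 2.53, 1.44 and 2.05 in WT tissue and at 1.64, 0.948 and 1.47 in BOD against 1.97, 2.25 and 4.07 in sham tissue. *Asns*, asparagine synthetase, and *Dao*, the D-amino acid oxidase, had ratios of 0.586, 1.27 and 1.58 and of 0.541, 1.66 and 1.63 for BOD over sham, UOD over contra and *Nell2*-/- over WT. All 12 members of the group were without overlap in all 3 comparisons, as were 189 of the 220 members and 2.89% of all genes tested.

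Genes of the same functions outside the set were tested in each comparison. Since a gene outside the set missed at least 1 of the 3 ratios, unless its symbol was left out or its sham mean was under 1 FPKM, few of them could pass in all 3 directions. Of 24 tested genes of serine, glycine and one-carbon metabolism that are no members, 8 were lower and 5 higher in BOD, 8 higher and 2 lower in UOD, and 8 higher and 3 lower in *Nell2*-/- tissue, and only *Gcsh*, of the glycine cleavage system, passed in all 3 directions, with log2 differences of -1.01 ± 0.04 (adjusted p = 1.8e-12), 0.20 ± 0.04 (adjusted p = 0.0015) and 0.21 ± 0.04 (adjusted p = 9.8e-04). *Psat1*, the step after *Phgdh*, was higher in all 3, with 0.77 ± 0.17 (adjusted p = 8.2e-04), 0.74 ± 0.17 (adjusted p = 0.0024) and 0.89 ± 0.17 (adjusted p = 4.4e-04). Of 17 tested genes of glutamate and glutamine metabolism that are no members, 6 were lower and 6 higher in BOD, 7 higher and 5 lower in UOD, and 5 higher and 6 lower in *Nell2*-/- tissue. *Slc1a1*, the epithelial glutamate carrier, was lower in all 3, with -3.28 ± 0.09 (adjusted p = 1.9e-15), -3.35 ± 0.09 (adjusted p = 5.4e-15) and -4.43 ± 0.09 (adjusted p = 8.6e-17), whereas *Oat*, ornithine aminotransferase, was higher in all 3, with 1.28 ± 0.06 (adjusted p = 7.0e-12), 0.52 ± 0.06 (adjusted p = 4.0e-06) and 0.59 ± 0.06 (adjusted p = 6.2e-07). Several members of this group (*Asns*, *Chac1*, *Phgdh*, *Shmt2*, *Mthfd2* and, among the members without a group, *Ddit4*) are known targets of the amino acid response factor ATF4. Of the 18 tested ATF4 targets that are no members, 10 were lower and 6 higher in BOD, 5 higher and 7 lower in UOD, and 6 higher and 8 lower in *Nell2*-/- tissue. *Slc3a2*, the heavy chain of several amino acid carriers and an ATF4 target, was lower in all 3, with -0.84 ± 0.06 (adjusted p = 2.2e-09), -0.66 ± 0.06 (adjusted p = 2.1e-07) and -0.73 ± 0.06 (adjusted p = 3.9e-08), and *Atf4* itself had -0.74 ± 0.05 (adjusted p = 2.5e-09), -0.34 ± 0.05 (adjusted p = 9.9e-05) and -0.15 ± 0.05 (adjusted p = 0.0435).

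Both indoleamine dioxygenases, neighbours on chromosome 8 that open the ring of tryptophan, were members. *Ido1* (chr8:24584133-24596952) was at 10.7, 8.50 and 9.45 FPKM in BOD against 138, 142 and 239.9 in sham tissue, 515, 510.0 and 552 in UOD against 252, 253 and 239 in contra tissue, and 568, 432 and 473 in *Nell2*-/- against 212, 181 and 239 in WT tissue. *Ido2* (chr8:24531892-24576414) lay 7719 bases from it. It was at 0.199, 0.115 and 0.139 FPKM in BOD against 5.38, 6.43 and 7.33 in sham tissue, 10.98, 11.95 and 11.96 in UOD against 5.31, 6.58 and 6.27 in contra tissue, and 10.5, 11.3 and 12.1 in *Nell2*-/- against 5.001, 4.82 and 4.92 in WT tissue. For both genes every BOD library was below 11 FPKM, the groups did not overlap, and the BOD/sham ratio was 0.0550 for *Ido1* and 0.0237 for *Ido2*. *Haao*, a later step of the same pathway, met the rule with low and scattered values, 0.636, 2.31 and 0.213 FPKM in *Nell2*-/- against 0.226, 1.32 and 0.443 in WT tissue, which overlapped. Without *Nell2*-/- replicate 2 the ratio of *Haao* was 0.642. Of the 8 tested kynurenine pathway genes that are no members, 2 were lower and 2 higher in BOD, 1 passed in UOD, as lower, and 2 were higher and 1 lower in *Nell2*-/- tissue. *Hpdl* encodes a relative of the enzyme of tyrosine breakdown. It was at 0.550, 0.579 and 0.790 FPKM in BOD against 55.5, 53.2 and 51.6 in sham tissue, 74.5, 77.4 and 71.0 in UOD against 52.3, 53.5 and 55.3 in contra tissue, and 103, 88.2 and 105 in *Nell2*-/- against 76.1, 77.4 and 69.9 in WT tissue, the fourth lowest BOD/sham ratio among members with a sham mean over 50 FPKM (0.0120). *Ddc*, the aromatic amino acid decarboxylase, had ratios of 0.361, 1.58 and 1.38.

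The carriers in the set move amino acids, sugars, lactate, zinc and urea, and all 9 were without overlap in all 3 comparisons. So were 189 of the 220 members, picked on these same ratios, and 2.89% of all genes tested. *Slc16a10* encodes an aromatic amino acid carrier of the basolateral membrane. It was at 31.2, 27.8 and 26.8 FPKM in BOD against 47.6, 48.1 and 80.7 in sham tissue, 154, 154 and 140.3 in UOD against 91.2, 91.2 and 79.8 in contra tissue, and 227, 207 and 223 in *Nell2*-/- against 67.9, 61.2 and 75.8 in WT tissue. The *Nell2*-/- libraries were more than 3 times the WT mean (3.21), the largest *Nell2*-/- over WT ratio among the 9. *Slc7a9*, the light chain of the cystine carrier, was at 9.65, 8.24 and 6.76 FPKM in UOD against 2.91, 2.80 and 2.62 in contra tissue and 0.347, 1.22 and 0.824 in BOD against 2.28, 2.75 and 3.39 in sham tissue. The zinc carrier *Slc30a2* was at 74.2, 70.2 and 71.2 FPKM in *Nell2*-/- against 37.8, 36.3 and 38.0 in WT tissue. The lowest BOD/sham ratios among these 9 carriers, which do not include *Slc38a5*, were those of the urea transporter *Slc14a2*, at 0.151, 0.218 and 0.214 FPKM in BOD against 4.25, 5.10 and 5.70 in sham tissue, and of the sugar carrier *Slc45a1*, at 0.0297, 0.0229 and 0.0276 in BOD against 1.37, 1.49 and 1.86 in sham tissue. The fructose carrier *Slc2a5*, the lactate carrier *Slc16a3*, the glucose-6-phosphate exchanger family member *Slc37a1* and the ABC transporter *Abca2* had BOD/sham ratios of 0.170, 0.462, 0.544 and 0.390. Of the 24 tested amino acid carriers that are no members, 8 were lower and 8 higher in BOD, 7 higher and 6 lower in UOD, and 5 higher and 9 lower in *Nell2*-/- tissue.

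Luminal acidity and ammonia were represented by 3 coding genes. *Rhcg* (chr7:79593363-79617657) encodes the ammonia channel of the apical membrane. It was at 6.38, 4.55 and 4.93 FPKM in BOD against 163, 169 and 206 in sham tissue, 371, 380.3 and 393 in UOD against 215, 206 and 192 in contra tissue, and 376, 306 and 355 in *Nell2*-/- against 161, 147 and 166 in WT tissue. *Car12* encodes a membrane-bound carbonic anhydrase. It was at 10.1, 7.98 and 8.33 FPKM in BOD against 12.7, 12.8 and 16.6 in sham tissue, 24.2, 28.03 and 28.8 in UOD against 17.3, 18.3 and 19.9 in contra tissue, and 47.2, 44.7 and 50.04 in *Nell2*-/- against 19.2, 19.5 and 20.5 in WT tissue. *Slc9a2*, a sodium-proton exchanger, was at 21.3, 21.1 and 19.6 FPKM in *Nell2*-/- against 12.6, 12.8 and 13.5 in WT tissue and 5.62, 5.15 and 4.80 in BOD against 12.3, 13.5 and 15.1 in sham tissue. The BOD/sham ratio was 0.0295 for *Rhcg* and 0.626 for *Car12*, and none of the 3 overlapped in any comparison. The proton pump pseudogene *Atp6v0c-ps2* also met the rule, at 141, 233 and 190.2 FPKM in UOD against 0.171, 0.0104 and 24.9 in contra tissue, 113, 133 and 19.1 in *Nell2*-/- against 2.56, 0.837 and 51.2 in WT tissue and 99.6, 87.7 and 129 in BOD against 146, 307 and 73.2 in sham tissue. Its libraries varied widely within groups, and its reads may be shared with the parent gene, so its values are uncertain.

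Potassium channel subunits made up 7 members, all with sham means under 11 FPKM. *Kcnmb4* encodes a regulatory subunit of the large-conductance calcium-activated channel. It was at 2.79, 2.89 and 2.51 FPKM in BOD against 9.08, 8.75 and 14.1 in sham tissue, 19.5, 20.7 and 22.5 in UOD against 13.4, 12.6 and 13.6 in contra tissue, and 24.0, 18.5 and 19.96 in *Nell2*-/- against 9.66, 8.93 and 9.69 in WT tissue. *Kcnc4*, a voltage-gated pore subunit, was at 8.91, 7.21 and 7.48 FPKM in *Nell2*-/- against 2.46, 1.72 and 3.48 in WT tissue. *Kcna1*, a voltage-gated pore subunit, was at 10.4, 10.9 and 11.9 FPKM in *Nell2*-/- against 3.95, 3.70 and 4.28 in WT tissue and at 1.72, 1.21 and 1.34 in BOD against 1.96, 2.01 and 3.48 in sham tissue, where sham replicates 1 and 2 lay close to the BOD libraries. The sodium-activated *Kcnt1* had the largest UOD/contra ratio of the 7 (3.25), at 5.14, 4.84 and 4.89 FPKM in UOD against 1.495, 1.73 and 1.34 in contra tissue. *Kcnd1* had ratios of 0.335, 1.98 and 2.49, and the beta subunit *Kcnab1*, which overlapped between BOD and sham tissue, 0.542, 1.73 and 2.27. The antisense transcripts *Kcnmb4os1* and *Kcnmb4os2* were members too. The library kit marks strand, but whether strand was used when FPKM were computed is not given in the sources used here, so reads of *Kcnmb4* and *Kcnmb4os1*, which overlap, may be shared. Of the 66 other tested genes whose symbol starts with Kcn, 11 were lower and 23 higher in BOD, 14 higher and 7 lower in UOD, and 23 higher and 6 lower in *Nell2*-/- tissue, and 1, *Kcng4* (sham mean 0.444 FPKM, under the floor of the rule), passed in all 3 directions, as few genes outside the set could. *Kcnk1*, the most abundant of them, had log2 differences of -0.86 ± 0.05 (adjusted p = 9.8e-11), 0.09 ± 0.05 (adjusted p = 0.181) and 0.23 ± 0.05 (adjusted p = 0.0012), and *Kcnj11*, the pore of the ATP-sensitive channel, -5.02 ± 0.26 (adjusted p = 2.6e-11), -6.05 ± 0.26 (adjusted p = 7.7e-12) and -6.44 ± 0.26 (adjusted p = 2.4e-12).

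Other channels and receptors known from excitable cells were members at mostly low levels. The ATP-gated channel *P2rx2* was at 8.54, 4.47 and 5.74 FPKM in BOD against 18.2, 18.3 and 24.9 in sham tissue, 68.3, 60.8 and 64.5 in UOD against 27.7, 24.1 and 22.7 in contra tissue, and 51.9, 44.2 and 46.6 in *Nell2*-/- against 19.96, 20.1 and 21.8 in WT tissue. The neurotensin receptor *Ntsr2* was at 1.77, 1.12 and 0.677 FPKM in BOD against 14.7, 19.9 and 64.9 in sham tissue, 89.3, 94.0 and 123 in UOD against 82.9, 73.9 and 68.0 in contra tissue, and 269, 215 and 241 in *Nell2*-/- against 97.1, 57.6 and 108 in WT tissue, with sham replicate 3 more than 3 times the other sham libraries and WT replicate 2 the lowest of its group. The plasma membrane calcium pump *Atp2b3* was at 0.128, 0.149 and 0.129 FPKM in BOD against 2.47, 2.89 and 4.27 in sham tissue and 11.1, 10.3 and 16.5 in UOD against 5.93, 5.85 and 4.82 in contra tissue. *Gabra4* and *Gabrb1*, subunits of the GABA-A receptor with adjoining genes on chromosome 5, were both members. *Gabrb1* was at 8.18, 6.94 and 7.23 FPKM in UOD against 3.85, 3.15 and 2.85 in contra tissue and at 0.760, 0.749 and 0.667 in BOD against 0.597, 1.09 and 2.46 in sham tissue, which overlapped. *Gfra1*, the GDNF co-receptor, was the most abundant of this group, at 241, 236 and 219 FPKM in UOD against 143, 143 and 135 in contra tissue and 52.6, 48.3 and 44.9 in BOD against 106, 116 and 140.3 in sham tissue. The netrin receptor *Unc5a* was at 1.21, 1.53 and 1.12 FPKM in BOD against 16.5, 17.01 and 18.3 in sham tissue, and the polycystin *Pkd2l1* overlapped between *Nell2*-/- and WT tissue.

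Secreted ligands and hormone receptors counted 12 members. *Ppy* encodes pancreatic polypeptide. It was at 2.01, 2.14 and 1.64 FPKM in BOD against 66.0, 47.5 and 52.7 in sham tissue, 63.1, 69.2 and 54.4 in UOD against 42.8, 47.8 and 43.8 in contra tissue, and 46.8, 50.1 and 66.0 in *Nell2*-/- against 30.7, 31.6 and 39.4 in WT tissue. *C1qtnf9* encodes a secreted relative of adiponectin. It was at 1.56, 1.11 and 1.07 FPKM in BOD against 72.4, 64.8 and 68.6 in sham tissue, 157, 152 and 110.0 in UOD against 56.3, 62.7 and 58.9 in contra tissue, and 83.3, 98.6 and 102 in *Nell2*-/- against 57.8, 54.5 and 52.7 in WT tissue. *Pgf* encodes placental growth factor. It was at 3.77, 4.01 and 2.94 FPKM in BOD against 16.4, 15.1 and 18.9 in sham tissue, 29.9, 33.5 and 41.0 in UOD against 22.0, 18.1 and 19.5 in contra tissue, and 55.1, 53.6 and 54.0 in *Nell2*-/- against 22.7, 20.1 and 24.8 in WT tissue. The lowest BOD/sham ratios in this group were those of *C1qtnf9* (0.0182) and *Ppy* (0.0348), and the *Pgf* libraries of *Nell2*-/- tissue were more than 2 times those of WT tissue. *Npy*, neuropeptide Y, was at 3.47, 1.89 and 1.33 FPKM in BOD against 16.5, 10.2 and 18.3 in sham tissue with UOD/contra and *Nell2*-/- over WT ratios of 1.28 and 1.44. *C1qtnf5* had the highest *Nell2*-/- over WT ratio of the group (3.15), at 109, 87.0 and 101.1 FPKM in *Nell2*-/- against 31.2, 27.8 and 35.4 in WT tissue, and the highest BOD/sham ratio (0.629, or 0.781 without sham replicate 3). Among the receptors, *Ramp3*, which sets the ligand preference of the calcitonin receptor-like receptor, was at 54.3, 57.5 and 79.5 FPKM in UOD against 30.9, 23.4 and 22.5 in contra tissue and 7.56, 7.37 and 8.49 in BOD against 10.6, 12.8 and 24.6 in sham tissue. The prolactin receptor *Prlr*, the interleukin 6 receptor *Il6ra* and the bile acid receptor *Gpbar1* had UOD/contra ratios of 1.71, 1.86 and 1.34, the last with overlapping libraries and a ratio of 0.991 by group medians. Isthmin, *Ism1*, had ratios of 0.336, 1.45 and 1.70 for BOD over sham, UOD over contra and *Nell2*-/- over WT. *Npb*, neuropeptide B, overlapped between UOD and contra and between *Nell2*-/- and WT tissue, and *Fstl3*, which binds activins, overlapped between UOD and contra tissue.

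The secretory pathway itself supplied 14 members, all without overlap in all 3 comparisons (189 of the 220 members, 2.89% of all genes tested). *Pdia4* encodes a protein disulfide isomerase of the endoplasmic reticulum. It was at 158, 142 and 125 FPKM in BOD against 299.6, 299 and 317 in sham tissue, 507, 499 and 441 in UOD against 323, 319 and 298 in contra tissue, and 382, 362 and 353 in *Nell2*-/- against 297, 269.5 and 286 in WT tissue. *Agr2* encodes an isomerase known for mucin folding. It was at 102, 88.8 and 93.4 FPKM in BOD against 162, 135 and 230.5 in sham tissue, 535, 503 and 450.3 in UOD against 215, 205 and 209 in contra tissue, and 397, 299 and 313 in *Nell2*-/- against 187, 152 and 188 in WT tissue. *Lamp1* encodes a glycoprotein of the lysosomal membrane. It was at 315, 311 and 301 FPKM in BOD against 564, 563 and 667 in sham tissue, 831, 835 and 832 in UOD against 609.7, 612 and 606 in contra tissue, and 813, 749 and 822 in *Nell2*-/- against 554, 522 and 555 in WT tissue. The UOD/contra and *Nell2*-/- over WT ratios were 2.37 and 1.92 for *Agr2* and 1.37 and 1.46 for *Lamp1*. The others were *Pdia5*, the sulfhydryl oxidase *Qsox2*, the cargo receptor *Tmed4*, the Ragulator subunit *Lamtor4*, the lysosomal transcription factor *Tfe3*, the adaptor subunits *Ap1s2* and *Ap3b2*, and the glycan enzymes *Galnt12*, *Gcnt2*, *Fut1* and *Chst10*, with BOD/sham ratios from 0.175 (*Ap1s2*) to 0.641 (*Fut1*). Of the 34 tested folding and stress genes of the endoplasmic reticulum that are no members, 31 were lower and 2 higher in BOD, 6 higher and 13 lower in UOD, and 3 higher and 17 lower in *Nell2*-/- tissue. Only *Pdia6* among them passed in all 3 directions, with -1.40 ± 0.07 (adjusted p = 5.4e-12), 0.43 ± 0.07 (adjusted p = 7.2e-05) and 0.22 ± 0.07 (adjusted p = 0.0140). The chaperone *Hspa5* had -1.17 ± 0.06 (adjusted p = 1.4e-11), -0.12 ± 0.06 (adjusted p = 0.142) and -0.02 ± 0.06 (adjusted p = 0.795). Of 40 tested Golgi and glycosylation genes that are no members, 22 were lower and 10 higher in BOD, 7 higher and 14 lower in UOD, and 6 higher and 19 lower in *Nell2*-/- tissue, and only *B4galt1*, the galactosyltransferase, passed in all 3. In both lists few genes outside the set could pass in all 3 directions, since they missed part of the rule. Of all genes tested, members included, 2.2% passed.

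Lipid metabolism made up 10 members, again all without overlap in all 3 comparisons (189 of the 220 members, 2.89% of all genes tested). *Elovl2* elongates very long polyunsaturated fatty acids. It was at 2.45, 2.08 and 2.45 FPKM in BOD against 20.7, 22.1 and 28.1 in sham tissue, 39.0, 42.3 and 40.0 in UOD against 27.7, 29.5 and 27.4 in contra tissue, and 56.1, 48.9 and 58.9 in *Nell2*-/- against 26.0, 25.6 and 25.9 in WT tissue. *Lipg* encodes endothelial lipase. It was at 15.9, 14.1 and 14.1 FPKM in BOD against 39.3, 42.8 and 64.3 in sham tissue, 117, 119 and 145 in UOD against 81.0, 78.8 and 71.5 in contra tissue, and 164, 141 and 163 in *Nell2*-/- against 68.4, 59.0 and 72.8 in WT tissue. *Fa2h*, the fatty acid 2-hydroxylase, had the lowest BOD/sham ratio of the group, at 0.214, 0.165 and 0.284 FPKM in BOD against 9.20, 8.87 and 10.5 in sham tissue, and stood at 18.2, 16.5 and 20.2 FPKM in *Nell2*-/- against 9.43, 9.87 and 9.45 in WT tissue. *Agpat3*, an acyltransferase of phospholipid synthesis, was the most abundant, with ratios of 0.622, 1.49 and 2.23 for BOD over sham, UOD over contra and *Nell2*-/- over WT. The arachidonate lipoxygenases *Alox5* and *Alox12* and the phospholipase *Pla2g4f* had ratios of 0.539, 1.60 and 2.34, of 0.441, 1.31 and 1.86 and of 0.164, 1.58 and 2.24. *Mlxipl*, the carbohydrate response factor, *Acbd7* and *Gdpd1* had BOD/sham ratios of 0.498, 0.103 and 0.583.

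Of the steroid and drug enzymes, *Gstm7*, a glutathione transferase of the mu class, was by far the most abundant, at 111, 78.5 and 88.2 FPKM in BOD against 449.6, 439 and 576 in sham tissue, 985, 969.8 and 909.9 in UOD against 519.5, 506 and 503 in contra tissue, and 653, 660.1 and 692 in *Nell2*-/- against 467, 461 and 479 in WT tissue. The steroid 17-alpha-hydroxylase *Cyp17a1* was at 8.41, 6.16 and 5.62 FPKM in *Nell2*-/- against 2.06, 1.26 and 2.15 in WT tissue and 0.812, 0.395 and 0.556 in BOD against 1.15, 1.36 and 2.77 in sham tissue, low in every group. Its *Nell2*-/- and WT libraries did not overlap, with a ratio of 3.69. *Cyp4f15* was at 2.39, 1.68 and 1.62 FPKM in BOD against 9.69, 8.96 and 6.90 in sham tissue, *Aldh3b2* overlapped between UOD and contra tissue, and the estrogen sulfotransferase *Sult1e1* overlapped between *Nell2*-/- and WT tissue. Of the 21 tested glutathione transferase and related genes that are no members, 9 were lower and 6 higher in BOD, 7 higher and 2 lower in UOD, and 8 higher and 3 lower in *Nell2*-/- tissue, and *Gstm4*, *Gstm5*, *Gstp1* and *Gstk1* passed in all 3 directions. *Gstm1*, of the same class and possibly sharing reads with its paralogs, was higher in all 3, with 0.50 ± 0.07 (adjusted p = 6.8e-06), 1.09 ± 0.07 (adjusted p = 1.2e-09) and 1.01 ± 0.07 (adjusted p = 2.4e-09).

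At the cell surface, *Ace* encodes angiotensin-converting enzyme. It was at 43.6, 31.6 and 32.9 FPKM in BOD against 120.3, 124 and 199 in sham tissue, 448, 437 and 539 in UOD against 247, 236 and 224 in contra tissue, and 473, 398 and 444 in *Nell2*-/- against 186, 159 and 195 in WT tissue. *Alpl* encodes tissue-nonspecific alkaline phosphatase. It was at 1.63, 2.44 and 2.21 FPKM in BOD against 61.7, 65.0 and 96.4 in sham tissue, 169, 176 and 192 in UOD against 94.1, 96.4 and 88.6 in contra tissue, and 260.0, 214 and 237 in *Nell2*-/- against 100.2, 84.0 and 103 in WT tissue. BOD tissue retained 0.244 of the sham mean of *Ace* and 0.0282 of that of *Alpl*, and neither gene overlapped in any comparison. *Alppl2*, another alkaline phosphatase, was listed at 0 in 2 BOD libraries, at 0, 0.0283 and 0 FPKM in BOD against 1.84, 1.21 and 1.35 in sham tissue, and overlapped between UOD and contra tissue. The aminopeptidase *Rnpep* had ratios of 0.613, 1.57 and 1.47. The prominins *Prom1* and *Prom2*, pentaspan proteins of apical protrusions, had ratios of 0.586, 1.83 and 1.66 and of 0.424, 1.80 and 1.66 for BOD over sham, UOD over contra and *Nell2*-/- over WT. *Prom2* was at 398, 391 and 393 FPKM in UOD against 222, 222 and 213 in contra tissue. *Espn*, which bundles actin in microvilli, had 0.611, 1.54 and 1.60, and the keratin *Krt19* was at 419, 381 and 409 FPKM in *Nell2*-/- against 175, 172 and 166 in WT tissue. The smooth muscle protein *Cnn1*, calponin, overlapped between UOD and contra tissue. Of the 9 smooth muscle markers, *Cnn1* included, 3 were lower and 1 higher in BOD, 1 lower and 1 higher in UOD, and 1 lower in *Nell2*-/- tissue, and 6 were higher in contra than in sham tissue. Their summed FPKM was 251 to 332 in BOD against 1847 to 2201 in sham tissue. It was 501 to 659 in UOD against 1648 to 1770.4 in contra tissue. It was 449.6 to 551 in *Nell2*-/- against 2034 to 2100.1 in WT tissue. Of these sums *Actg2* alone averaged 13.8 in BOD against 1717 in sham tissue, and 42.5 in *Nell2*-/- against 1673 in WT tissue.

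Both Rac exchange factors that respond to phosphatidylinositol trisphosphate, *Prex1* and *Prex2*, were members. *Prex2* was at 3.90, 3.03 and 3.59 FPKM in BOD against 6.93, 6.83 and 9.11 in sham tissue, 17.9, 16.7 and 16.8 in UOD against 13.05, 13.6 and 12.02 in contra tissue, and 36.1, 34.8 and 33.2 in *Nell2*-/- against 13.4, 13.1 and 14.7 in WT tissue. *Prex1* was at 22.1, 17.03 and 21.2 FPKM in *Nell2*-/- against 7.37, 7.07 and 7.54 in WT tissue, 6.66, 7.64 and 9.08 in UOD against 6.73, 6.05 and 5.82 in contra tissue, which overlapped, and 2.22, 2.71 and 2.77 in BOD against 3.47, 3.49 and 4.96 in sham tissue. The *Nell2*-/- over WT ratio was 2.74 for *Prex1* and 2.53 for *Prex2*, and the UOD/contra ratio 1.26 and 1.33. The tyrosine kinase *Syk* was at 1.39, 1.22 and 1.49 FPKM in BOD against 5.77, 6.32 and 16.2 in sham tissue, 38.5, 35.3 and 54.1 in UOD against 26.0, 22.4 and 21.6 in contra tissue, and 54.3, 32.6 and 38.6 in *Nell2*-/- against 16.8, 12.1 and 21.1 in WT tissue. *Card9*, which signals downstream of SYK in myeloid cells, was at 10.2, 9.70 and 10.5 FPKM in UOD against 4.92, 4.54 and 4.09 in contra tissue, and the adaptors *Pstpip1* and *Sh3bp2* and the kinase *Irak1* had BOD/sham ratios of 0.166, 0.539 and 0.618. *Syk*, *Card9* and *Pstpip1* are best known from immune cells. Of 10 MHC class II and dendritic cell markers, 8 were higher in BOD, 8 higher in UOD and 3 lower in *Nell2*-/- tissue. Of 11 macrophage markers, 6 were higher in BOD, 1 was higher in UOD and 4 were lower in *Nell2*-/- tissue. The summed FPKM of the MHC class II list was 244 to 283 in UOD against 149 to 199 in contra tissue, and its part in the members' values was not tested. Of the 8 tested Rac genes and exchange factors that are no members, 1 was lower and 6 higher in BOD, 3 higher and 2 lower in UOD, and 2 higher and 1 lower in *Nell2*-/- tissue. The ubiquitous *Rac1* was lower in all 3, with -0.62 ± 0.05 (adjusted p = 1.1e-08), -0.46 ± 0.05 (adjusted p = 1.8e-06) and -0.39 ± 0.05 (adjusted p = 9.8e-06).

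Among transcription and chromatin factors, *Tcf7* acts with beta-catenin. It was at 19.1, 19.4 and 16.8 FPKM in BOD against 25.4, 27.6 and 42.3 in sham tissue, 82.9, 80.4 and 109 in UOD against 56.2, 49.8 and 45.8 in contra tissue, and 116, 83.7 and 94.9 in *Nell2*-/- against 40.5, 36.0 and 46.8 in WT tissue. *Hopx*, a homeodomain-only protein, was at 30.1, 31.2 and 28.01 FPKM in BOD against 126, 114 and 137 in sham tissue, and its UOD/contra ratio was near the threshold (1.255). The chromatin subunits *Smarcd3* and *Sin3b* had ratios of 0.277, 1.84 and 1.41 and of 0.412, 1.42 and 1.95. *Snai3*, with UOD libraries that overlapped contra tissue, was at 0.101, 0.0389 and 0 FPKM in BOD against 1.23, 1.92 and 1.98 in sham tissue, and *Zbtb16*, an androgen-induced zinc finger in prostate, at 0.399, 0.550 and 0.861 FPKM in BOD against 0.989, 0.994 and 1.08 in sham tissue. Of the 92 tested androgen response genes that are no members 52 were lower and 26 higher in BOD, 15 higher and 33 lower in UOD, and 20 higher and 38 lower in *Nell2*-/- tissue, with median log2 differences of -0.36, -0.10 and -0.10. Of these 92, 3 passed in all 3 directions, *B2m*, *B4galt1* and *Spdef*, and few could, as genes outside the set missed part of the rule. *Scd1*, the stearoyl-CoA desaturase of that list, was lower in all 3, with -2.97 ± 0.07 (adjusted p = 1.6e-16), -2.31 ± 0.07 (adjusted p = 1.6e-14) and -2.52 ± 0.07 (adjusted p = 3.9e-15).

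The 97 members without a role group had sham means from 1.002 to 656 FPKM and median ratios of 0.403, 1.51 and 1.83. Of these, 82 were without overlap in all 3 comparisons (189 of the 220 members, 2.89% of all genes tested). *Gm6792* is annotated as coding, without a named function. It was at 38.2, 24.4 and 28.5 FPKM in BOD against 198, 256 and 954 in sham tissue, 1927, 1915 and 2670.0 in UOD against 1196, 1042 and 1006 in contra tissue, and 2419, 1591 and 1988 in *Nell2*-/- against 616, 343 and 726 in WT tissue. Its lowest UOD and *Nell2*-/- libraries, 1915 and 1591 FPKM, were above every control library, and sham replicate 3 alone among the sham libraries approached the contra level. *Cyb561* encodes an electron carrier of secretory vesicles. It was at 49.0, 48.7 and 47.2 FPKM in BOD against 169, 172 and 266 in sham tissue, 373, 399 and 473 in UOD against 283, 262 and 251 in contra tissue, and 524, 415 and 463 in *Nell2*-/- against 234, 194 and 238 in WT tissue. *Ndrg2*, of the N-myc downstream-regulated family, was at 163, 144 and 152 FPKM in *Nell2*-/- against 58.4, 52.6 and 59.6 in WT tissue, and *Ddit4*, an inhibitor of the mTOR pathway, at 104, 105 and 121 against 54.5, 52.2 and 58.2. *Gldn*, gliomedin, had the largest *Nell2*-/- over WT ratio among members with a WT mean of at least 1 FPKM (7.36), at 0.173, 0.134 and 0.205 FPKM in BOD against 7.75, 8.03 and 9.76 in sham tissue, 14.8, 17.2 and 12.5 in UOD against 9.26, 11.4 and 10.4 in contra tissue, and 33.5, 38.4 and 36.9 in *Nell2*-/- against 4.25, 5.81 and 4.74 in WT tissue. Its UOD/contra ratio was 1.43. *Asb11*, a substrate adaptor of ubiquitin ligases, was at 0.528, 1.17 and 1.04 FPKM in BOD against 25.9, 26.7 and 54.3 in sham tissue. *Isg20*, an interferon-stimulated exonuclease, was at 74.5, 82.3 and 127 FPKM in UOD against 48.2, 40.2 and 42.0 in contra tissue. *Ccdc183*, at 7.60, 6.95 and 8.17 FPKM in UOD against 1.94, 2.04 and 2.104 in contra tissue and 6.53, 7.06 and 8.19 in *Nell2*-/- against 1.31, 1.77 and 2.73 in WT tissue, had nearly equal ratios in both comparisons (3.73 and 3.75).

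By annotation 204 members were protein-coding, 10 long noncoding RNAs, 3 transcribed pseudogenes, 2 small nucleolar RNAs and 1 a microRNA. The small RNAs *Snord22*, *Snora17* and *Mir8120* met the rule on single libraries: *Snora17*, for example, was listed at 12.98, 0 and 0 FPKM in sham tissue and at 0 in all BOD libraries. *Mir8120* was listed at 0, 0 and 9.39 FPKM in sham tissue and *Snord22* at 15.3, 0 and 0. The libraries were made from polyadenylated RNA, in which such short RNAs are poorly captured. *Mbl2* was listed at 0 in all WT libraries, and at 0, 0 and 0.167 FPKM in *Nell2*-/- tissue. The pseudogene *Gm5512* was at 4.78, 2.57 and 0.00161 FPKM in sham tissue.

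At the edge of the rule, the members closest to 0.67 for BOD over sham were *Ttc39aos1* (0.669), *Zfp648* (0.668) and *Ss18l1* (0.666), and the genes just outside were *Elmo1* (0.673), *2010300C02Rik* (0.674) and *Bdh1* (0.675). For UOD over contra the closest members were *Fstl3* (1.2504), *Hopx* (1.255) and *Prex1* (1.257), and just outside lay *Serinc5* (1.248), *Atp2b4* (1.248) and *Gpc1* (1.245). For *Nell2*-/- over WT they were *Amt* (1.278), *Unc5a* (1.278) and *Zfp189* (1.282), and outside *Cfap53* (1.245), *Iah1* (1.244) and *Fuca2* (1.239). Leaving out each of the 18 libraries in turn, 147 members met the rule every time, 56 in 16 or 17 of the 18 settings and 17 in fewer, down to 13 for *Prex1*.

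The members were spread over the genome, with autosomal shares from 0.493% of the genes of that sham level on chromosome 16 to 2.53% on chromosome 10, and a share of 3.91% on the X chromosome (16 of 409). There were 17 pairs of members less than 100 kb apart. *Teddm1b* and *Glul* lay 23058 bases apart on chromosome 1, *Cyb561* and *Ace* 22929 bases apart on chromosome 11, *Abca2* and *Ptgds* 18165 bases apart on chromosome 2, *Wbp1l* and *Cyp17a1* 9776 bases apart on chromosome 19, *Ndrg2* and *Rnase13* 7361 bases apart on chromosome 14, and *P2rx2* and *Lrcol1* 1187 bases apart on chromosome 5. These pairs joined genes of different roles and levels: the BOD/sham ratio was 0.000156 for *Teddm1b* and 0.468 for *Glul*. Where gene models overlap, as for *Gabra4* and *Gabrb1*, *Kcnmb4* and *Kcnmb4os1*, and *Fstl3* and *Prss57*, reads may be shared.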

How the data were processed

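RNA of IS-caput tissue, 18 libraries in 6 groups of 3, was sequenced as 101-base single-end reads from a stranded mRNA kit. The submitters' processing notes name TopHat2 2.1.1, Cufflinks 2.2.1 and mm10. The authors deposited FPKM per gene, without counts, so the depth of a library is unknown here, and only the relative value of 1 read could be estimated from low genes. The maker of the RNA extraction kit differs between the labels and the study's methods, and the study itself compared groups with a t-test.

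Group means and their ratios gave the 220 members. The members, the gene lists and the rule for named genes were chosen with earlier results of these data known, and the 15 role groups and 6 of the lists (serine and one-carbon, ATF4, glutamate, kynurenine, Kcn symbols, Rac) after the values had been seen. The genes named by rule were the 10 members with the highest sham mean, the 10 with the lowest BOD/sham ratio, the 10 with the largest smaller one of the UOD/contra and *Nell2*-/- over WT ratios, and members on the other lists. Further ones were named by role after their values were seen. Genes at 0.1 FPKM or more in at least 3 libraries (17302) were fitted with limma 3.58.1 in R 4.3.3 as 6 group means on log2(FPKM + 0.1), with 12 residual degrees of freedom, a mean trend, robust variances and Benjamini-Hochberg adjustment over all 17302, and a gene was called at an adjusted p under 0.05. A log2 difference on this scale understates the change of low genes. Every adjusted p in the text is from this fit. The labels call the libraries of a group replicates without naming mice, so p-values measure the spread between these samples, which may be in part technical.

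Positions and 300-base start regions came from RefSeq on GRCm38.p6, which held all 220 gene identifiers. Alternatives tried were other thresholds, scalings, filters and added values, group medians, a replicate block, fits on 6 libraries and leaving out each library. The values of 1 member are not reported here.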

Additional observations from a re-analysis of the deposited data

How the results depend on the processing

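With stricter ratios (0.5 and 1.5) 80 genes met the rule, with looser ones (0.8 and 1.1) 524, and with a sham mean of at least 0.1 FPKM 355. A sham mean of at least 5 FPKM gave 152, 1 FPKM added to every value 180, group medians 221 (190 of them members), median-ratio scaling 220 (215 members), equal totals without the 50 most abundant genes 163, and no symbols left out 239. Leaving out 1 library at a time gave 197 to 239. The genes called between contra and sham tissue were 2186, of which 52.6% were higher in contra. They were 1024 to 2125 over the settings without 1 library, with 1024 without sham replicate 1 (65.9% higher), 1286 without contra replicate 1 and 1154 without contra replicate 2, and 1488 with only those 6 libraries fitted (44.2% higher). The called genes were 9852 to 10329 over such settings for BOD against sham (10682 with all libraries), 5061 to 5329 for UOD against contra (5987) and 5403 to 5717 for *Nell2*-/- against WT (6286). Of the members, 130 had their ratios recomputed under the alternatives as 384 ratios with 3834 values, and the others' were not recomputed one by one. Direction was reversed in 3 of these values: *Snord22* had a *Nell2*-/- over WT ratio of 0.988 without *Nell2*-/- replicate 3 (0.988 to 3.71 over the settings without 1 library), *Haao* 0.642 without *Nell2*-/- replicate 2 (0.642 to 3.15), and *Gpbar1* a UOD/contra ratio of 0.991 by group medians. A further 105 moved beyond the spread of their replicates. Same-numbered libraries did not deviate together in every pair (correlations of 0.0736, 0.0879 and -0.0367 for UOD and contra, 0.114, 0.119 and 0.0458 for *Nell2*-/- and WT, and -0.110, -0.0737 and -0.0651 for BOD and sham). Such small correlations with 3 libraries a group cannot decide whether the numbers pair the samples. The main fit took UOD and contra as unpaired, although by the methods both stem from the same 3 mice. With the replicate block 10623, 5966, 6237 and 2150 genes were called for BOD against sham, UOD against contra, *Nell2*-/- against WT and contra against sham. With 3 libraries a group and no depth, ratios of members near 1 FPKM and of those listed at 0 in single libraries are the least certain.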
